A study of Mus musculus with 12 samples.

Results

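Gene expression in Runx1 knockout (Runx1KO) neutrophils was compared with that in Control neutrophils after exposure to lipopolysaccharide (LPS), a component of the outer membrane of Gram-negative bacteria. The comparison used 6 of the 12 RNA-seq libraries of the series, 3 of each genotype, chosen by their labels, and covered all 12917 genes with enough counts to be tested. Both groups were neutrophils of C57BL/6 mice, sorted from the marrow of crushed hind limb bones by CD11b and Ly6G on their surface and by the absence of Siglec F and F4/80. The cells were kept for 2 h in buffered Hanks medium with serum and 100 ng/mL LPS. The other 6 libraries were from cells of the same genotypes kept for 2 h with vehicle, and they entered the same statistical model. In the labels the groups are called Control and Runx1 KO, and the sources used here give neither the Cre driver nor the deleted exons nor the age of the mice. The design text of the series describes the Control material as LKS- cells, a progenitor fraction, from the pooled marrow of 1 Runx1f/f and 1 Runx1f/- mouse, the second with a germline deletion of 1 Runx1 allele. The labels of the Control libraries describe sorted neutrophils instead, so the Control group may hold cells with a single functional allele and its animals may be pooled. The labels do not say whether the 3 libraries of a group stand for 3 mice, so p-values here speak of the spread among these libraries. By Xist and Y-linked transcripts, the libraries numbered 2 differ in sex from those numbered 1 and 3, so a group is not 1 mouse measured repeatedly.

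Runx1 is a DNA-binding transcription factor that works together with its partner Cbfb and acts in blood stem cells, megakaryocytes, lymphocytes and granulocytes. LPS is carried to CD14 and sensed by the complex of TLR4 and MD-2, and the adaptors MyD88 and TRIF then activate NF-kB and the MAP kinases, which switch on genes of cytokines, chemokines and their own inhibitors. Neutrophils answer LPS within hours with a narrow set of such products, among them TNF, IL-1 and the chemokines of the CXCL2 and CCL3 families. The title of the series concerns a negative influence of Runx1 on this output, and the comparison of the genotypes after LPS bears on that question.

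The 6 LPS libraries held 19023610 to 25443980 counts. Transcripts encoded by the mitochondrial genome took 0.293 to 0.537% of the counts. Levels are given as CPM, the counts of a gene relative to the total of its library, with totals scaled by TMM to correct for a few strongly counted genes; the scaling factor was lowest in Runx1KO LPS 3 (0.699) and lay between 0.895 and 1.09 in the other 5. Neutrophil transcripts were high in all 6 libraries, with S100a8 at 36320 to 48020 CPM, and Siglecf, whose product was gated out, stood at 3.48 to 9.82 CPM. Adgre1, the gene of the gated-out antigen F4/80, did not keep to that pattern. In the order of the numbers 1, 2 and 3, it was counted at 16.4, 122 and 207 CPM in Control LPS, against 20.1, 318 and 1220 CPM in Runx1KO LPS. Adgre1 was thus lowest in the libraries numbered 1 and highest in Runx1KO LPS 3. The libraries numbered 2 had no Xist counts and held transcripts of the Y chromosome, while those numbered 1 and 3 had Xist at 42.4 to 59.7 CPM, so the number goes with the sex of the mice. Deviations from the group mean, over all genes tested, correlated between Control LPS and Runx1KO LPS libraries of the same number with r = 0.565, 0.429 and 0.445 for the numbers 1, 2 and 3. The number was therefore also fitted as a block.

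Runx1 itself was counted at 32.3, 50.9 and 26.1 CPM in Control LPS and at 58.3, 68.6 and 43.7 CPM in Runx1KO LPS. In each numbered pair the Runx1KO library was the higher one, and the groups overlapped. The log2 fold change was 0.64 (SE 0.29) and did not pass the quasi-likelihood test of edgeR (adjusted p by the method of Benjamini and Hochberg = 0.492; 0.167 with the block). A gene count sums all exons, so reads from exons that a deletion leaves in place say nothing about the loss of the protein.

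After LPS, 45 genes rose in Runx1KO neutrophils (0.348% of the 12917 tested) and 74 fell (0.573%), at an adjusted p under 0.05 by edgeR's quasi-likelihood test. The changes were large: the median log2 fold change was 3.10 among the rises and −2.95 among the falls, and 33 rises and 59 falls exceeded 4-fold. The smallest change called was 1.22 up and 1.19 down on the log2 scale. With the library number as a block, 117 genes were called higher (0.906%) and 185 lower (1.43%), and all 119 genes of the plain test were among these 302 (2.34%). A gene is named as called where edgeR's adjusted p was under 0.05, unless another tool is named. Log2 fold changes and standard errors (SE) are those of the plain test unless the fit with the block is named for the value itself, also for genes called with the block alone. In every gene called by the plain test the 3 Runx1KO libraries lay on one side of the 3 Control libraries; over all genes tested, 13.3% had groups that did not overlap (841 higher, 6.51%, and 873 lower, 6.76%). The bulk of the transcriptome showed little shift, with a median log2 fold change of 0.03 and 1311 genes at an unadjusted p under 0.05.

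The counts of calls depended on single libraries. Without Control LPS 2, edgeR called 15 genes higher and 46 lower, and without Control LPS 3 it called 15 and 34. Without Control LPS 1 the counts were 26 and 40, without Runx1KO LPS 2 they were 26 and 27, and without Runx1KO LPS 3 they were 28 and 34. Without Runx1KO LPS 1 there were more calls than with all libraries, 56 higher and 79 lower. Leaving out all libraries of a number, which removes 4 of 12, gave 1 higher and 2 lower without number 1, 0 and 4 without number 2 and 11 and 14 without number 3, and with the block and without number 2 there were 0 in each direction (13 and 26 without number 1, 79 and 116 without number 3). Of the 35 called genes that are named here by rule, 17 were still called in each of the 6 fits that left out 1 LPS library: C4b, Ctla2a, Stfa2, Stfa3, Itga2b and Foxo1 among the rises and Cd3d, Fbxo10, Lmo1, Sema4f, Ldha, Ldhc, Cystm1, Nrp1, Krt86, Ifitm1 and Tnfsf13b among the falls.

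**Figure D1:**
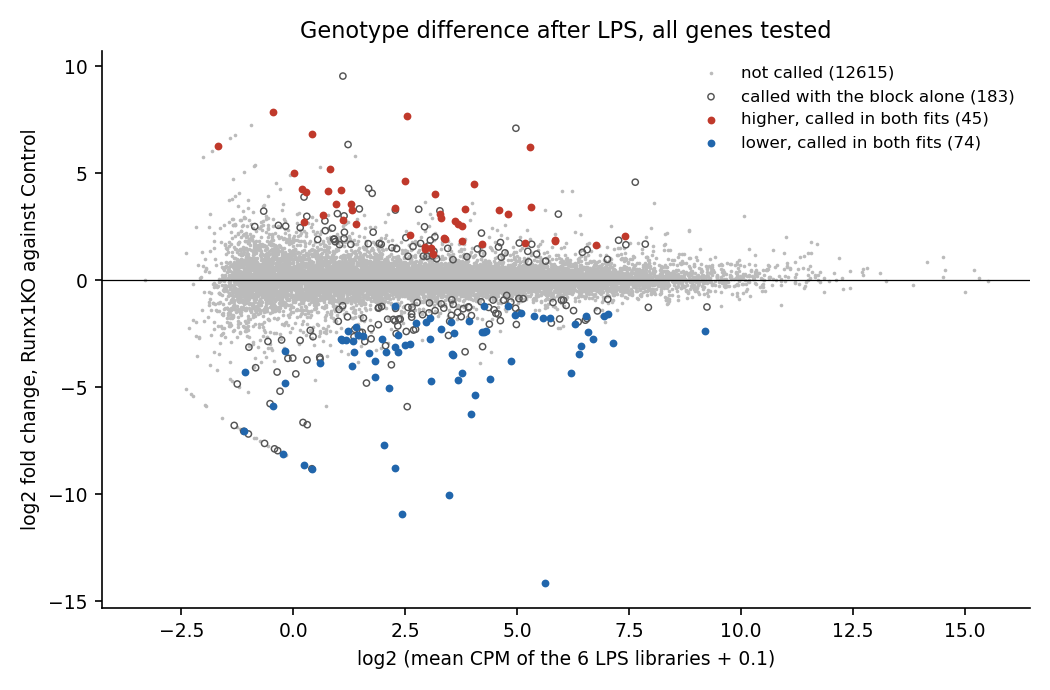
Each point is 1 of the 12917 genes tested, with the log2 of its mean CPM over the 6 LPS libraries (plus 0.1) on the horizontal axis and its log2 fold change, Runx1KO against Control after LPS, on the vertical axis. Red points are the 45 genes called higher and blue points the 74 called lower in both fits, and open circles are the 183 genes called only with the library number as a block; most called genes lie at low or middle levels and few at the right edge.

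Cytokine genes stood higher in Runx1KO after LPS as a list, but not without the library Runx1KO LPS 3, and 2 members passed the test. Of 25 cytokine genes tested, 18 had a positive log2 fold change, with a list median of 0.68 beside 0.03 over all genes; edgeR called 1 higher and 1 lower. The mean log2 level of the list in Runx1KO minus that in Control was −1.02, 0.64 and 1.22 for the libraries numbered 1, 2 and 3. The pair numbered 1 thus went against the other pairs, and 6 of 25 genes were higher in Runx1KO in that pair, against 19 and 21 in the others. Without Runx1KO LPS 3 the list median was −0.07 with 11 of 25 positive, and without Runx1KO LPS 1 it was 1.13 with 20 positive.

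Il27, a cytokine subunit that pairs with Ebi3, was the 1 cytokine gene that rose. It was at 4.31, 2.93 and 3.25 CPM in Control LPS and at 11.7, 17.7 and 36.0 CPM in Runx1KO LPS, without overlap. The log2 fold change was 2.64 (SE 0.52, edgeR adjusted p = 0.0390; 0.0332 with the block). The call ended without any 1 of 5 libraries, all but Runx1KO LPS 1, with an adjusted p of up to 0.162 without Control LPS 3. Apobr, which overlaps Il27 on the opposite strand, had a log2 fold change of 0.14. Tnfsf13b, which encodes the B cell survival factor BAFF, fell from 41.0, 22.7 and 36.0 CPM to 6.08, 7.86 and 5.003 CPM, a log2 fold change of −2.39 (SE 0.33, edgeR adjusted p = 0.00694). It was the 1 member called lower, in all 3 pairs.

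The classical products of the LPS response did not pass the test, and their levels varied widely between libraries of the same genotype. Tnf, which encodes tumour necrosis factor, was at 1898, 1264 and 1927 CPM in Control LPS and at 488, 2866 and 8859 CPM in Runx1KO LPS. Runx1KO LPS 1 was the lowest of the 6 libraries and Runx1KO LPS 3 the highest, and the log2 fold change was 1.26 (SE 1.22, edgeR adjusted p = 0.837); it was −0.02 without Runx1KO LPS 3. Il1b, the gene of interleukin-1 beta, was at 5279, 4532 and 6960 CPM against 3939, 5464 and 14340 CPM (edgeR log2 fold change 0.50, SE 0.80, adjusted p = 0.924). Its value turned to −0.25 without Runx1KO LPS 3. Il6 was counted at 3.66, 0.860 and 7.72 CPM against 0.343, 1.44 and 10.6 CPM, with a log2 fold change of 0.01 (SE 1.21, edgeR adjusted p = 0.999), and −0.09 with the block.

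Il1a, the gene of interleukin-1 alpha, also had its lowest value in Runx1KO LPS 1 and its highest in Runx1KO LPS 3, with 173, 112 and 166 CPM in Control, against 90.5, 345 and 1876 CPM in Runx1KO. Csf3, the gene of the granulocyte growth factor G-CSF, went from 1.604, 4.30 and 14.6 CPM to 2.65, 32.2 and 329 CPM. This gene was higher in Runx1KO in all 3 pairs, yet the groups overlapped and the log2 fold change of 4.15 (SE 1.72) had an edgeR adjusted p of 0.434. Ebi3, Csf1 and Il23a, a partner of Il27, the macrophage growth factor and a subunit of interleukin-23, had log2 fold changes of 1.07, 0.87 and 1.25 and did not pass. Osm and Il15 were near 0 at −0.02 and −0.01, while Il10, the anti-inflammatory cytokine, was at −0.75.

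Chemokine genes showed the largest median of the response lists, 1.84 with 14 of 15 tested genes positive, and edgeR called 0 of them. DESeq2 called 4 of the 15 higher, limma-voom 1, and edgeR without the filter on low counts 2. The mean difference of the list was −0.30, 1.96 and 2.84 on the log2 scale for the numbers 1, 2 and 3, and without Runx1KO LPS 3 the median was 0.60. Ccl2, which attracts monocytes, was at 0.150, 1.01 and 0.188 CPM in Control, against 2.74, 38.8 and 145 CPM in Runx1KO. Every Runx1KO library exceeded every Control library, and the lowest of them was the one numbered 1. The log2 fold change was 7.10 (SE 1.57); edgeR's adjusted p was 0.0628, and 0.0310 with the block, so Ccl2 was the 1 chemokine called with the block. Cxcl5, which attracts neutrophils, was at 0 counts in all 3 Control libraries and at 0.257, 0.674 and 1.57 CPM in Runx1KO, at least 15.7-fold higher against a floor of 3 counts over the group (edgeR adjusted p = 0.0795).

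Ccl3 and Ccl4, chemokines that neutrophils release early, differed widely between libraries. Ccl3 was at 572, 1397 and 2744 CPM in Control, against 222, 3238 and 11660 CPM in Runx1KO (edgeR log2 fold change 1.68, SE 1.32, adjusted p = 0.777). Ccl4 was at 87.4, 148 and 486 CPM against 83.0, 566 and 5075 CPM (edgeR log2 fold change 2.99, SE 1.27, adjusted p = 0.445). For both genes the libraries numbered 1 were lower in Runx1KO and those numbered 2 and 3 higher. Cxcl2, a ligand of the neutrophil receptor Cxcr2, was at 2976, 699 and 1587 CPM against 1744, 1659 and 9372 CPM, with a log2 fold change of 1.28 (SE 1.28, edgeR adjusted p = 0.848) that turned to −0.05 without Runx1KO LPS 3. Cxcl1, with 15.4, 21.4 and 18.5 CPM in Control, was at 4.79, 154 and 294 CPM in Runx1KO. Its Control libraries were close together, and its Runx1KO libraries lay on both sides of them.

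**Figure D2:**
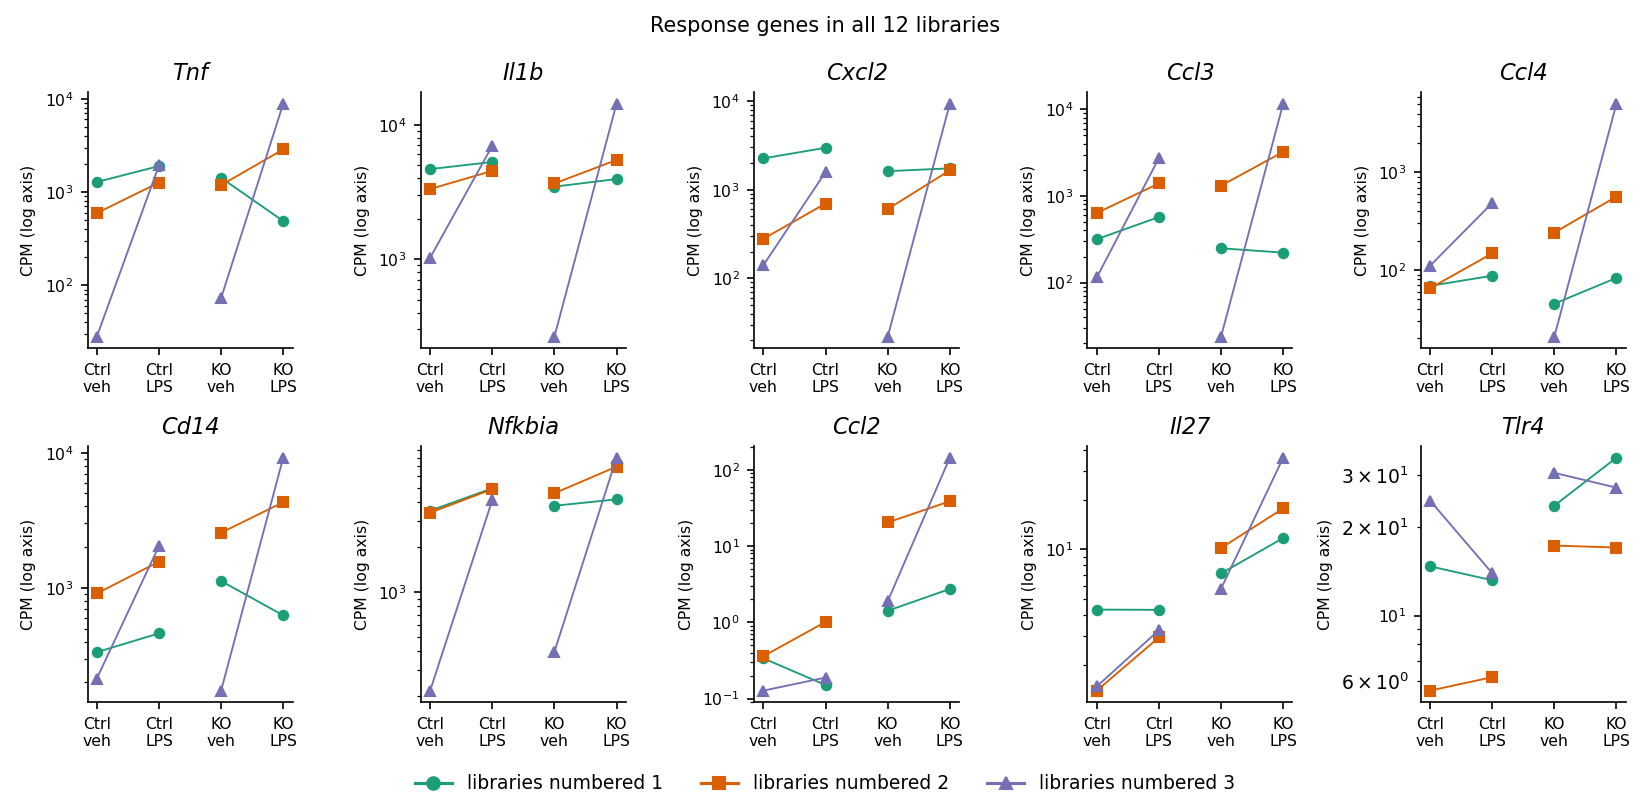
CPM (log axis) of 10 response genes in all 12 libraries, with circles, squares and triangles for the libraries numbered 1, 2 and 3 and lines joining vehicle and LPS libraries of the same genotype and number. The Runx1KO libraries numbered 3 have the lowest Runx1KO vehicle values and the highest Runx1KO LPS values for Tnf, Il1b, Cxcl2, Ccl3, Ccl4 and Cd14, whereas Tnf and Cd14 were lower after LPS than with vehicle in Runx1KO number 1; Ccl2 and Il27 lie higher in Runx1KO for every number after LPS.

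The difference between LPS and vehicle within each genotype also varied by number. The mean log2 level of the chemokine list with LPS minus that with vehicle was 0.19, 0.85 and 2.83 in Control, against −0.38, 0.90 and 5.46 in Runx1KO, for the numbers 1, 2 and 3. For the NF-kB list the values were 0.26, 0.41 and 2.85 in Control, against −1.10, 0.48 and 3.42 in Runx1KO. Runx1KO LPS 1 therefore lay below its own vehicle library in these lists, and in the cytokine list too (−0.61). Over the 6 LPS libraries, Adgre1 stood in the same order as the cytokine, chemokine and NF-kB lists except in number 1. There it was higher in Runx1KO (20.1 against 16.4 CPM) while the lists were lower. With vehicle Adgre1 was at 15.5, 74.9 and 16.4 CPM in Control, against 24.8, 223 and 47.4 CPM in Runx1KO. The part of Adgre1 in the result was not tested. Monocyte and macrophage markers had 8 of 12 positive and a median of 0.65, which was −0.45 without Runx1KO LPS 3 and 0.13 without Control LPS 2. EdgeR called 0 of them in both fits and DESeq2 called 2 lower; their summed level was 1680 to 2109 CPM in Control and 1018 to 3207 CPM in Runx1KO, lowest in number 1 and highest in number 3. Mertk had the smallest p of this list and went against its median. It was at 0.802, 1.72 and 0.235 CPM in Control LPS and at 0 counts in all Runx1KO LPS libraries. Against a floor of 3 counts over the group it was at least 19.1-fold lower (edgeR adjusted p = 0.186). In bulk RNA, fewer cells of a type and less RNA per cell cannot be told apart.

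Receptors and adaptors of the LPS pathway had a smaller median. Of 29 Toll-like receptor and adaptor genes, 21 were positive (median 0.34), 0 were called by the plain test and 1, Tlr4, was called higher with the block. Tlr4, the LPS receptor, was at 13.2, 6.17 and 13.9 CPM in Control, against 34.4, 17.03 and 27.2 CPM in Runx1KO. The groups did not overlap, and unlike Tnf and Il1b the gene was higher in Runx1KO in the pair numbered 1 as well. The log2 fold change was 1.24 (SE 0.50), with an edgeR adjusted p of 0.409 and of 0.0455 with the block. Cd14, the LPS co-receptor, was at 461, 1563 and 2042 CPM against 626, 4303 and 9188 CPM, higher in Runx1KO in all 3 pairs but with overlapping groups (edgeR log2 fold change 1.80, SE 1.01, adjusted p = 0.626). Ticam2, the bridging adaptor TRAM, was at 2.31, 11.7 and 10.5 CPM against 7.54, 32.8 and 58.1 CPM (edgeR log2 fold change 2.00, SE 0.78, adjusted p = 0.390; 0.0565 with the block). Unc93b1, which carries endosomal Toll-like receptors, had the smallest p of the list in the plain test (edgeR log2 fold change 1.01, SE 0.38, adjusted p = 0.367). Ly96, the gene of MD-2, was at 0.92, Myd88 at 0.59 and Tlr2, the receptor of bacterial lipoproteins, at 0.34 on the log2 scale. Without Runx1KO LPS 3 the median of this list was 0.01.

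For the subunits of NF-kB, their inhibitors and feedback regulators, 20 of 24 genes were positive with a median of 0.33, and 0 were called in either fit. The mean difference was −0.81, 0.29 and 0.67 on the log2 scale for the numbers 1, 2 and 3, and 4, 19 and 21 of the 24 genes were higher in Runx1KO in these pairs. Without Runx1KO LPS 3 the median was −0.09. Nfkbia, the inhibitor IkB-alpha and an early NF-kB target, was at 4975, 4906 and 4143 CPM in Control, against 4191, 6955 and 7992 CPM in Runx1KO (edgeR log2 fold change 0.45, SE 0.87, adjusted p = 0.946). Tank, an adaptor of the kinases that relay Toll-like receptor signals, had the smallest p of the list, with 1.24 (SE 0.74, edgeR adjusted p = 0.651). Tnfaip3, the feedback inhibitor A20, was at 0.16. Naip5 and Naip6, near-identical cytosolic sensors of bacterial flagellin whose counts are uncertain, had log2 fold changes of 1.07 and 1.46; edgeR called 0 of the 14 inflammasome genes in the plain test and 1, Naip5, with the block (adjusted p = 0.0439), and DESeq2 called 2 higher. The list median of 0.36 was 0.16 without Runx1KO LPS 3.

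**Figure D3:**
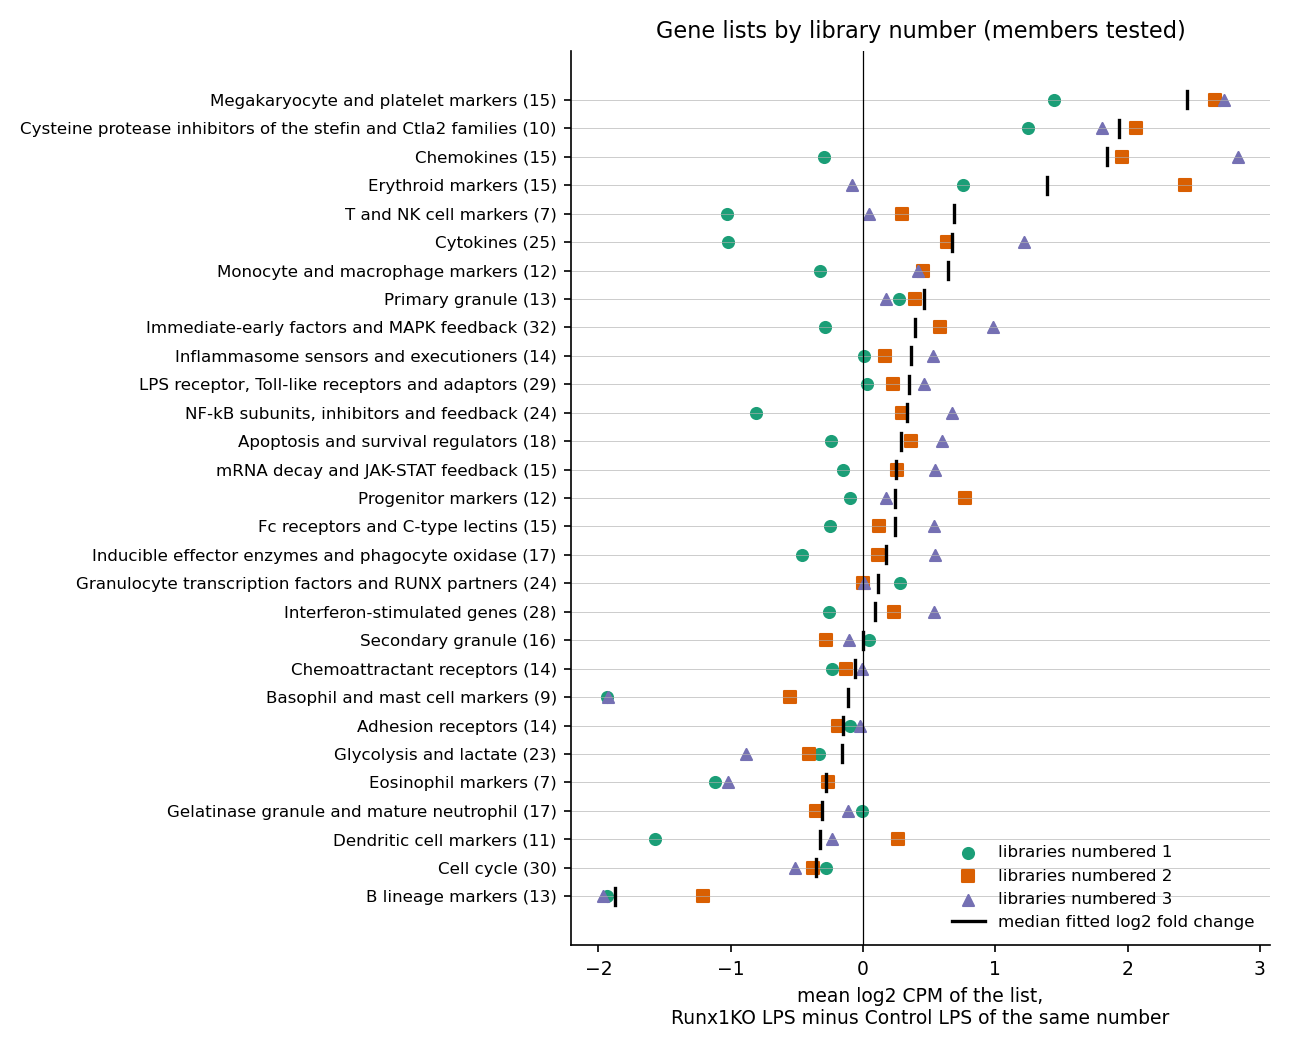
For each gene list (members tested in parentheses), coloured marks give the mean log2 CPM of the list in Runx1KO LPS minus that in Control LPS for the libraries numbered 1, 2 and 3, and the black bar gives the median fitted log2 fold change. Platelet markers and the cysteine protease inhibitors lie right of 0 and B lineage markers and cell cycle genes left of 0 for all 3 numbers, while cytokines, chemokines and NF-kB genes lie left of 0 for number 1 and right of 0 for numbers 2 and 3.

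The largest rises and falls were of another kind: their groups did not overlap, which their choice required, and the 12 largest of each direction were at 10.4 CPM or less in every LPS library of the lower genotype. Promoter sequences of 3 rises and 3 falls, those with the highest level among the 12 largest of each direction that had an entry in the RefSeq promoter table (build GRCm38.p6), are printed to show the DNA upstream of the genes that stood furthest apart. Each runs 5′ to 3′ over the 250 bases before the gene's start, in lower case, with capitals marking matches to the RUNX core letters TGTGGT or TGCGGT on either strand (ACCACA or ACCGCA on the strand shown). Stfa2 lies at chr16:36408364-36408613 (minus strand), Stfa3 at chr16:36455393-36455642 (minus strand), Gimap9 at chr6:48675885-48676134 (plus strand), Ldhc at chr7:46861013-46861262 (plus strand), Cldn1 at chr16:26371840-26372089 (minus strand) and Cd3d at chr9:44981536-44981785 (plus strand).
Stfa2: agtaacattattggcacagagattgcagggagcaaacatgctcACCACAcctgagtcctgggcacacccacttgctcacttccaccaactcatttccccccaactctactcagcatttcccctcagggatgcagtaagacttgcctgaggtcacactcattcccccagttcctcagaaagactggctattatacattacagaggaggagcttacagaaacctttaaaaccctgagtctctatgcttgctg
Stfa3: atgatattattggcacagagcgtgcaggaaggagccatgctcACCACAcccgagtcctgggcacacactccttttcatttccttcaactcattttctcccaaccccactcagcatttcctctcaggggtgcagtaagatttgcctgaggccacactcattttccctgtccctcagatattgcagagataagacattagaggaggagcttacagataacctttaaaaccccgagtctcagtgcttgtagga
Gimap9: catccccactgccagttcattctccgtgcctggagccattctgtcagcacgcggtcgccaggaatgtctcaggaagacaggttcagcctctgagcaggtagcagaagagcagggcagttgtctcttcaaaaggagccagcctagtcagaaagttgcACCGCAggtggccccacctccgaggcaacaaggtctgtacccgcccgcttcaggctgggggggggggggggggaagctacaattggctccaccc
Ldhc: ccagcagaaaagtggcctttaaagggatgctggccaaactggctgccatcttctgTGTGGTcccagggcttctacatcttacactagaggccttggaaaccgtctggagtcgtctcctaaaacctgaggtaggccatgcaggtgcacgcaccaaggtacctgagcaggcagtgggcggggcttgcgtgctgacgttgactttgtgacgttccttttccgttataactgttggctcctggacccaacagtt
Cldn1: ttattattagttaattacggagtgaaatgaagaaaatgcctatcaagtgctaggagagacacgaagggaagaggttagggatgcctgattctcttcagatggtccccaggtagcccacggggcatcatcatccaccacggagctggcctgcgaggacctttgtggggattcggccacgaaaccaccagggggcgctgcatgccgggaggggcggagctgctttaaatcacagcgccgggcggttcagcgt
Cd3d: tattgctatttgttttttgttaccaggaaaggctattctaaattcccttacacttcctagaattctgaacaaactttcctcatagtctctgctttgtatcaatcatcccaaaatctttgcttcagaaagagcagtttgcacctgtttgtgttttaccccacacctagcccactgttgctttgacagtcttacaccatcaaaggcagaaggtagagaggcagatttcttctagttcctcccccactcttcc

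Of these 6 windows, 4 held 1 match each, those of Stfa2, Stfa3, Gimap9 and Ldhc, and those of Cldn1 and Cd3d held 0. A match was found in 8 of 37 promoters of genes called higher (21.6%), in 10 of 52 of genes called lower (19.2%) and in 1572 of 8758 of all genes tested that had an entry (17.95%). With the block the shares were 14 of 84 (16.7%) and 29 of 131 (22.1%). A match of 6 letters is a description and not a binding site, and no match says only that these letters are not in this window.

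Cldn1, a tight junction protein, was at 51.5, 9.66 and 234 CPM in Control LPS and at 0 counts in all 3 Runx1KO libraries. Against a floor of 3 counts over the group it was at least 2145-fold lower (edgeR adjusted p = 0.0420; 0.00110 with the block). The Control libraries themselves spanned a wide range, and the call ended in 5 of the 6 fits that left out a library, with an adjusted p of up to 0.136 without Runx1KO LPS 2. Fbxo10, which recruits substrates to a ubiquitin ligase, was at 22.8, 14.8 and 28.9 CPM in Control and at 1 count over the Runx1KO libraries, all of it in number 1. The ratio of the counts was 1414 (95% counting interval 253 to 55910, edgeR adjusted p = 0.00114). Its call held without each library in turn. Polr1e, which overlaps Fbxo10 on the opposite strand, had a log2 fold change of −0.43. Lmo1, a LIM-only transcription cofactor, had 578 counts over Control and 1 over Runx1KO (edgeR adjusted p = 0.00573), and Sema4f, a semaphorin, had 487 and 2 (edgeR adjusted p = 0.00518).

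Nrp1, a co-receptor of semaphorins and of the growth factor VEGF, fell from 30.4, 11.3 and 31.1 CPM to 1.37, 0.719 and 0.787 CPM (edgeR log2 fold change −4.65, SE 0.51, adjusted p = 0.00184). Every Runx1KO library was more than 4-fold below every Control library. Cystm1, a small membrane protein, fell from 48.8, 10.7 and 37.6 CPM to 0.642, 0.943 and 0.731 CPM (log2 fold change −5.38, SE 0.77). Ces1d, a carboxylesterase with close relatives in a gene cluster, fell by 4.70 on the log2 scale (SE 0.92, edgeR adjusted p = 0.0382), and its call ended in 4 of the 6 fits without 1 library, with an adjusted p of 0.173 without Runx1KO LPS 2. The hair keratin genes Krt81, Krt83 and Krt86 lie next to each other and fell by 5.06, 3.47 and 4.54; they are similar in sequence, so their separate counts are uncertain. The call of Krt81 ended in 5 of the 6 fits, with an adjusted p of up to 0.128 without Runx1KO LPS 3.

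Among falls with more counts behind them, not named by rule and chosen after their values were seen, Gpr141, an orphan receptor, went from 122, 119 and 177 CPM to 2.65, 4.18 and 14.2 CPM (edgeR log2 fold change −4.32, SE 0.68, adjusted p = 0.0112). Nt5e, the ectoenzyme CD73 that makes adenosine, went from 171, 282 and 290 CPM to 19.1, 50.2 and 28.4 CPM (−2.92, SE 0.46, adjusted p = 0.0116). The highest Runx1KO library lay below the lowest Control library for both. Trpm2, a cation channel, went from 200, 173 and 213 CPM to 64.7, 62.0 and 71.9 CPM (−1.56, SE 0.23, edgeR adjusted p = 0.00904). Besides Cldn1 and Prss34, 4 genes called lower had 0 counts in all Runx1KO LPS libraries: Baiap3, Ednra, Scd1 and Cacna1e.

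Among the rises, C4b, complement component 4B, had 3 counts over the Control libraries, all in number 2, and was at 17.5, 5.66 and 10.7 CPM in Runx1KO. The ratio of the counts was 233 (95% counting interval 79.3 to 1131, edgeR adjusted p = 0.00904). Its neighbour C4a is similar in sequence, so the count is uncertain. Fam19a4, a secreted chemokine-like protein, rose from 0.601, 1.26 and 1.18 CPM to 21.5, 43.3 and 165 CPM (edgeR log2 fold change 6.23, SE 1.06, adjusted p = 0.0165). Its call ended without any 1 of the Control libraries, with an adjusted p of 0.0995 without Control LPS 1. Arhgap12, which turns off small GTPases, rose from 0.952, 1.16 and 2.02 CPM to 59.5, 22.7 and 11.5 CPM (edgeR log2 fold change 4.49, SE 0.67, adjusted p = 0.00904; 0.0514 without Control LPS 2). In this gene Runx1KO LPS 1 was the highest library, in contrast to the cytokines.

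Palld, an actin-binding protein, rose from 0.251, 0.658 and 0.377 CPM to 19.9, 6.96 and 4.95 CPM (edgeR log2 fold change 4.62, SE 0.90, adjusted p = 0.0382), and Enc1, also an actin-binding protein, from 1.00, 1.52 and 0.565 CPM to 18.02, 8.36 and 23.9 CPM (4.02, SE 0.70, adjusted p = 0.0191). Both calls leaned on single libraries: that of Palld ended in 5 and that of Enc1 in 4 of the 6 fits, and the adjusted p without Control LPS 3 was 0.169 for Palld and 0.111 for Enc1. Abcg2, a drug efflux transporter known from stem cells, rose from 2.71, 1.52 and 1.74 CPM to 13.6, 12.0 and 25.6 CPM (edgeR log2 fold change 3.10, SE 0.46, adjusted p = 0.00904; 0.0553 without Control LPS 3, and it also ended without Control LPS 2). Gimap9, a GTPase of the immunity-associated family, rose from 5.21, 6.83 and 4.99 CPM to 11.7, 60.6 and 75.3 CPM (3.12, SE 0.61, adjusted p = 0.0390). Its Runx1KO LPS 1 library was much closer to Control than the others, and its call ended in 5 of the 6 fits, all but the one without Runx1KO LPS 1, with an adjusted p of up to 0.169 without Control LPS 3.

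Foxo1, a forkhead transcription factor, rose from 3.36, 4.45 and 4.09 CPM to 34.4, 21.4 and 14.1 CPM. The groups were well apart, with a log2 fold change of 2.55 (SE 0.33, edgeR adjusted p = 0.00518). It was the 1 called gene among 24 granulocyte transcription factors and RUNX partners, of which 14 were positive (median 0.11). With the block, Gfi1b, a repressor of the erythroid and megakaryocytic lineages, was called higher (1.68, SE 0.43) and Ets1, a factor best known from lymphocytes, lower (from 136, 134 and 122 CPM to 57.6, 30.6 and 13.04 CPM). The RUNX partner Cbfb was at 0.15, the paralogs Runx2 and Runx3 at −0.04 and 0.10, and Spi1, the factor PU.1 of myeloid cells, at 0.21 on the log2 scale; none of these passed.

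**Figure D4:**
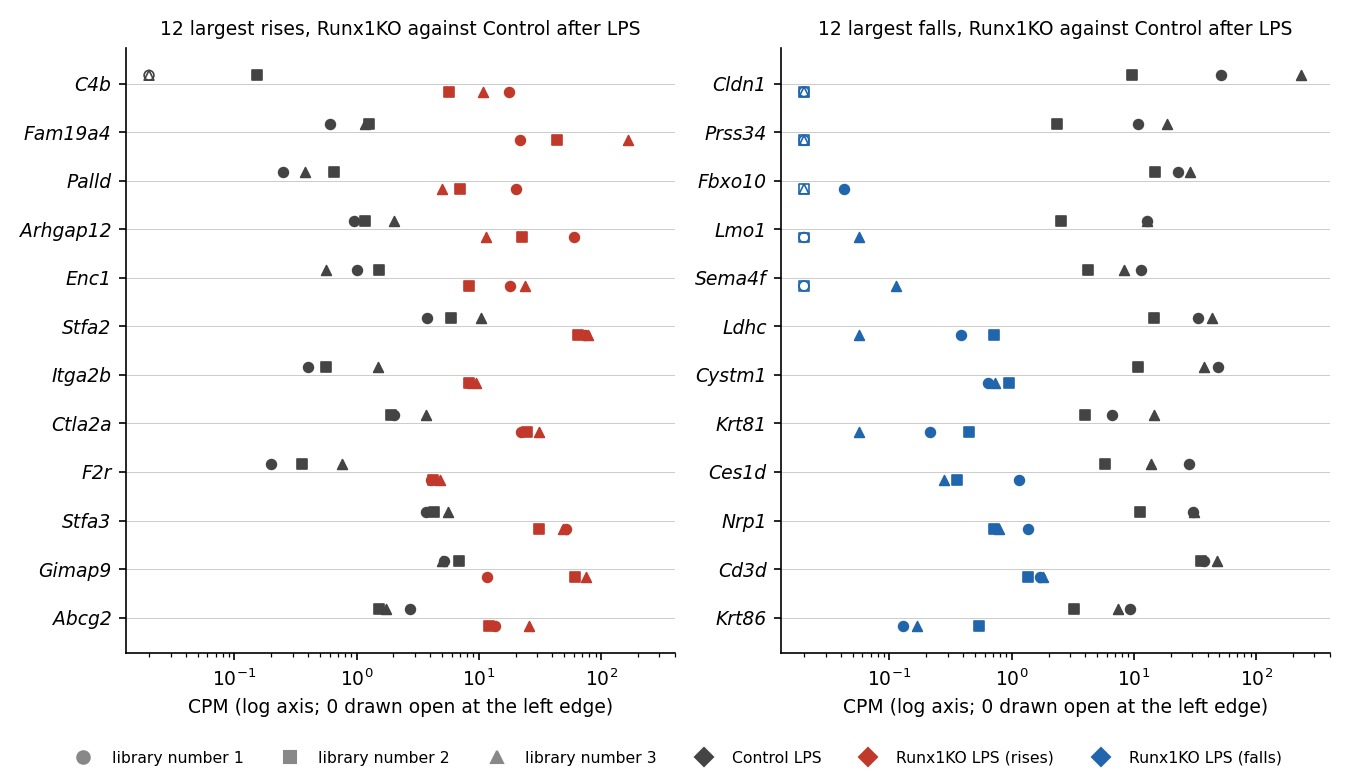
CPM (log axis) of the 12 largest rises (left) and falls (right) in the 6 LPS libraries, with Control in grey, Runx1KO rises in red and Runx1KO falls in blue, and the library number by marker shape. Open marks at the left edge are libraries at 0; in all 24 genes the 3 Runx1KO libraries lie on one side of the 3 Control libraries.

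Transcripts known from megakaryocytes and platelets stood higher in Runx1KO after LPS. Of 15 tested, 13 were positive with groups that did not overlap (beside 6.51% of all genes higher without overlap), and the median was 2.45. The plain test called 3 higher and the block 6, beside 0.348% and 0.906% of all genes. With vehicle the list median was 2.43 and 5 were called higher. Itga2b, the integrin subunit CD41, rose from 0.401, 0.556 and 1.51 CPM to 8.26, 8.22 and 9.39 CPM (edgeR log2 fold change 3.38, SE 0.48, adjusted p = 0.00863). The Runx1KO libraries were close to each other, whatever their number. Gp5, a subunit of the von Willebrand factor receptor, rose from 0.251, 0.0506 and 0.0471 CPM to 2.18, 2.11 and 2.02 CPM (4.13, SE 0.74, adjusted p = 0.0233), and Treml1, a receptor of platelet granules, from 0.251 CPM in Control LPS 1 and 0 in the others to 2.18, 3.01 and 4.61 CPM (edgeR adjusted p = 0.0319). The calls of Gp5 and Treml1 each ended in 4 of the 6 fits that left out a library, with adjusted p of 0.120 and 0.113 without Control LPS 3.

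Pf4 and Ppbp, the platelet chemokines CXCL4 and CXCL7, were called with the block alone. Pf4 was at 2.66, 0.303 and 0.800 CPM in Control, against 7.54, 12.8 and 17.1 CPM in Runx1KO (log2 fold change 3.31, SE 0.71; edgeR adjusted p = 0.0530, and 0.0310 with the block). Ppbp was at 0.902 CPM in Control LPS 1 and at 0 in the other Control libraries, against 4.495, 6.02 and 7.25 CPM (adjusted p = 0.0791, and 0.0455 with the block). Tubb1, the platelet beta-tubulin, was also called with the block (2.45, SE 0.57). Control LPS 1 was the Control library with the highest level of Gp5, Treml1, Pf4, Ppbp and Vwf. F2r, the thrombin receptor PAR1, is in none of the lists and is given as 1 of the 12 largest rises, not as a platelet marker. It rose from 0.201, 0.354 and 0.753 CPM to 4.02, 4.22 and 4.83 CPM (3.30, SE 0.49, edgeR adjusted p = 0.00904; 0.0514 without Control LPS 2). Alox12, the platelet lipoxygenase, and Cavin2, a caveolar protein abundant in platelets, were called higher too and were chosen after their values were seen (log2 fold changes 4.17 and 4.25).

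The 2 platelet list members that were counted most, Nbeal2 and Itgb3, did not follow the others. Itgb3, the beta 3 integrin subunit that pairs with CD41, was at 25.6, 33.3 and 27.5 CPM in Control, against 13.7, 20.5 and 11.1 CPM in Runx1KO (log2 fold change −0.93, SE 0.26), and was called lower with the block (adjusted p = 0.0246; 0.155 without it). Nbeal2 had a log2 fold change of −0.61. The summed level of the list was 116 to 163 CPM in Control and 110 to 178 CPM in Runx1KO, while its mean log2 level was higher in Runx1KO by 1.45, 2.66 and 2.73 in the pairs numbered 1, 2 and 3. Erythroid markers had 15 of 15 positive values (median 1.39; 1.11 with the block and 0.53 without number 2). EdgeR called 0 of them and DESeq2 1, higher; the median was 0.78 without Runx1KO LPS 2 and 2.14 without Control LPS 1. Their summed level was 1337, 476 and 393 CPM in Control, against 2057, 3232 and 423 CPM in Runx1KO, so the 2 groups overlapped and the pair numbered 3 hardly differed. Gata1, the transcription factor shared by erythroid cells and megakaryocytes, had the smallest p of this list (2.28, SE 0.62, edgeR adjusted p = 0.148). The part of platelets or red cell precursors in these results was not tested.

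B lineage transcripts were lower in Runx1KO. Of 13 tested, 1 was positive and the median was −1.88. The plain test called 2 lower and the block 5, beside 0.573% and 1.43% of all genes. With vehicle the list median was −2.15 and 3 were called lower. Ms4a1, which encodes CD20, was at 1.15, 1.11 and 1.46 CPM in Control and at 1 count over the Runx1KO libraries, a count ratio of 79.0 (95% counting interval 13.8 to 3162, edgeR adjusted p = 0.0191). Fcrla, an Fc receptor-like protein of B cells, fell from 2.40, 1.01 and 4.57 CPM to 0.171, 0.135 and 0.225 CPM (edgeR log2 fold change −3.88, SE 0.70, adjusted p = 0.0242). Both calls ended in 5 of the 6 fits that left out a library, with adjusted p of up to 0.0999 for Ms4a1 and 0.129 for Fcrla, each without Runx1KO LPS 2. With the block, Cd79b and Blk, parts of the B cell receptor machinery, were among those also called lower (log2 fold changes −2.18 and −3.73 in that fit). The summed level of the list was 27.2 to 72.7 CPM in Control and 14.3 to 23.6 CPM in Runx1KO. In every number the Runx1KO library was the lower one. Igll1 and Vpreb1, the surrogate light chain genes of early B cells, were at −0.04 and 0.45. Genes known from B cells outside the list that were called lower, and chosen after their values were seen, included Cd72, Spib, Fcmr and Ikzf3, at −3.39, −3.11, −4.81 and −2.77.

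Cd3d, the delta chain of the CD3 complex of the T cell receptor, had the smallest p of all genes. It fell from 37.1, 35.7 and 47.5 CPM to 1.71, 1.35 and 1.80 CPM (edgeR log2 fold change −4.63, SE 0.31, adjusted p = 6.19e-05). The libraries of each genotype lay within a narrow range. The other 6 T and NK cell genes tested had positive values that were not called (list median 0.69 over 7 genes, and −0.54 over the 5 that could be tested without number 3), among them the CD3 gamma chain Cd3g (0.16), Lck (0.04) and Cd247 (0.82). Without Cd3d these genes were at 2.35 CPM or less as group means, so their direction is uncertain. Of the 7 genes, 1 was higher in Runx1KO in the pair numbered 1, against 4 and 5 in the pairs numbered 2 and 3. Cd3d was the 1 gene of the list that was called.

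Basophil and mast cell transcripts were also divided, but here more than 1 member was lower. Prss34, a basophil protease, was at 10.8, 2.33 and 18.5 CPM in Control and at 0 counts in all Runx1KO libraries, at least 227-fold lower (edgeR adjusted p = 0.0191). Its call ended without Control LPS 1, Runx1KO LPS 2 or Runx1KO LPS 3, with an adjusted p of up to 0.0685 (without Runx1KO LPS 2). Mcpt8, another basophil protease, was at 3.56, 0.455 and 3.39 CPM and at 0 counts (adjusted p = 0.0530, and 0.0134 with the block). Hdc, the enzyme that makes histamine and is also expressed in neutrophils, did not pass, with 1785, 3504 and 3919 CPM in Control, against 1262, 4187 and 4599 CPM in Runx1KO. Cpa3, a protease of mast cells, was at −0.08 and Kit at 1.52. Of the 9 genes, 3 were positive and 6 negative (median −0.12, and −3.27 with vehicle). Without overlap, 3 were lower and 0 higher, beside 6.76% and 6.51% of all genes. Ear2, an eosinophil-associated ribonuclease with near-identical copies whose count is uncertain, was at 18.1, 3.39 and 12.4 CPM in Control, against 0.471, 0.0449 and 0 CPM in Runx1KO, and was called with the block (log2 fold change −5.91, SE 1.27; adjusted p = 0.00814 with the block and 0.0530 without). Prg2, an eosinophil granule protein, was at −0.28.

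Cysteine protease inhibitors of the stefin and Ctla2 families stood higher in Runx1KO. Of 10 tested, 9 were positive with a median of 1.93. The plain test called 4 and the block 6, all higher, beside 0.348% and 0.906% of all genes. With vehicle the list median was 1.31 and 3 were called higher. Stfa2, whose promoter is printed above, rose from 3.76, 5.87 and 10.4 CPM to 74.2, 64.8 and 77.8 CPM (edgeR log2 fold change 3.43, SE 0.43, adjusted p = 0.00392). Stfa3 rose from 3.71, 4.30 and 5.60 CPM to 51.9, 30.9 and 48.6 CPM (3.27, SE 0.38, adjusted p = 0.00233). The Runx1KO libraries were close together in both, with number 1 as high as the rest. Stfa2l1 rose from 51.1, 49.9 and 57.5 CPM to 141, 138 and 209 CPM (1.62, SE 0.26, adjusted p = 0.0116), and without any 1 Control library its call ended (adjusted p of up to 0.0645 without Control LPS 2). These genes form a cluster of near-identical copies, so their separate counts are uncertain; Stfa1, a further copy, had a log2 fold change of −0.33. Ctla2a, an inhibitor outside that cluster, rose from 2.00, 1.92 and 3.67 CPM to 21.9, 24.7 and 30.8 CPM (3.34, SE 0.37, adjusted p = 0.00207). Its neighbour and close copy Ctla2b was called with the block (2.24, SE 0.48). Cstb and Cst3, widely expressed cystatins, were at 0.81 and 0.28 and did not pass.

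Granule genes, which mark the stages of neutrophil development, held few called members. Of 13 primary granule genes, 9 were positive (median 0.46) and 1 was called lower: Cd63, a granule membrane protein, fell from 171, 116 and 140 CPM to 48.9, 41.3 and 43.5 CPM (edgeR log2 fold change −1.67, SE 0.25, adjusted p = 0.00904; 0.0520 without Runx1KO LPS 2). Its processed copy Cd63-ps was called lower as well (−1.75), and reads can be shared between them. Ctsc, the protease that activates the serine proteases of these granules, was called higher with the block (1.35, SE 0.29; adjusted p = 0.0294). Of 16 secondary granule genes, 8 were positive (median 0.00) and 0 were called; Ltf, lactoferrin, was at −0.23 and Camp, the cathelicidin, at −0.03. Of 17 gelatinase granule and mature neutrophil genes, 6 were positive (median −0.31), with Stfa2l1 called higher and, with the block, Sorl1, a sorting receptor, lower (−1.25, SE 0.33).

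Ly6g, the surface antigen used in the sort, was at 471, 395 and 400 CPM in Control, against 351, 156 and 158 CPM in Runx1KO. All Runx1KO libraries were lower, and the log2 fold change of −0.93 (SE 0.33) did not pass (edgeR adjusted p = 0.315; 0.162 with the block). Retnlg, a transcript of maturing neutrophils, was at 11370, 14440 and 13200 CPM against 21410, 21060 and 27360 CPM, with the difference in the opposite direction (0.84, SE 0.29, edgeR adjusted p = 0.315). Csf3r, the G-CSF receptor, was at −0.49, Mmp9, the gelatinase, at −0.53 and Cxcr2 at −0.42. Padi4, the enzyme that citrullinates histones, had the smallest p of the effector and oxidase list, at −0.65 (SE 0.32, edgeR adjusted p = 0.547). In that list 15 of 17 genes were positive with a median of 0.18, which was −0.11 without Runx1KO LPS 3 (5 of 17 positive), −0.01 without Control LPS 1 and −0.01 with library size alone as scaling; under that scaling the median over all genes went from 0.03 to −0.08, and that of the secondary granule list to −0.18.

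Interferon-stimulated genes had 16 of 28 positive values (median 0.09; 0.60 with 22 positive without Control LPS 1) and 1 call. Ifitm1, an interferon-inducible membrane protein that limits virus entry, fell from 214, 141 and 108 CPM to 18.1, 13.6 and 22.4 CPM (edgeR log2 fold change −3.10, SE 0.38, adjusted p = 0.00338). Its groups were several-fold apart, with every Runx1KO library below every Control library. Among adhesion receptors, 6 of 14 were positive (median −0.15, and 0.05 without Runx1KO LPS 2) and 0 were called by the plain test. With the block, Itga4, the alpha 4 integrin of leukocyte adhesion, was called higher (10.1, 29.2 and 17.9 CPM against 40.1, 76.1 and 66.6 CPM), and Itgb7 and Itgax, integrins of gut-homing and of dendritic cells, were called lower (log2 fold changes −1.53 and −1.61). Icam1, a ligand of neutrophil integrins, followed the cytokines, with 369, 780 and 1215 CPM against 188, 1220 and 3869 CPM. Among chemoattractant receptors 7 of 14 were positive and edgeR called 0 (median −0.06, and 0.04 without Control LPS 3); Ccr1 had the smallest p (−1.68, SE 0.54, edgeR adjusted p = 0.259).

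Of 23 genes of glycolysis and lactate handling, 2 were called, both lower (beside 0.573% of all genes), and 9 were positive (median −0.16, and −0.01 without Runx1KO LPS 3). Ldha, the main subunit of lactate dehydrogenase, fell from 870, 970 and 1132 CPM to 196, 203 and 173 CPM (edgeR log2 fold change −2.38, SE 0.26, adjusted p = 0.00184). Ldhc, the testis-type subunit encoded next to it, fell from 33.7, 14.5 and 43.5 CPM to 0.385, 0.719 and 0.0562 CPM (−6.24, SE 0.92, adjusted p = 0.00904). The processed copy Ldha-ps2 was called lower too (−1.77), and reads can be shared, so the Ldha count is uncertain. Pgam1, a glycolytic mutase, was at −1.30 and Slc16a3, a lactate exporter, at −0.64 without overlap of the groups, and neither passed; Pkm and Pgk1 were at −0.16 and −0.09. Cell cycle genes had 3 of 30 positive values, a median of −0.35 and 0 calls in either edgeR fit, against 1, lower, by DESeq2. The median was −0.20 without Runx1KO LPS 3 and −0.55 without Runx1KO LPS 1. The mean difference of this list was −0.28, −0.38 and −0.52 log2 for the numbers 1, 2 and 3. Mcm5, a subunit of the replication helicase, had the smallest p, with 22.1, 23.8 and 22.6 CPM against 15.7, 15.3 and 14.5 CPM (−0.59, SE 0.19, edgeR adjusted p = 0.248). Its groups were narrow and apart, but the difference was small.

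The remaining lists held no called gene in the plain test. Immediate-early factors and MAPK feedback genes had 22 of 32 positive values (median 0.39), with the smallest p for Klf4, a factor of monocyte development (2.22, SE 0.61, edgeR adjusted p = 0.155). Apoptosis regulators had 15 of 18 (median 0.29; Xiap 0.76), mRNA decay and JAK-STAT feedback genes 10 of 15 (0.25; Socs2 1.82) and Fc receptors and C-type lectins 12 of 15 (0.24; Clec4a2 0.77). Without Runx1KO LPS 3 these 4 medians were 0.09, 0.00, 0.03 and −0.08, in the order given. Without Control LPS 1 they were 0.75 for the immediate-early list, 0.02 for the mRNA decay list and 0.07 for the Fc receptor list. DESeq2 called 1 immediate-early gene and 1 Fc receptor or lectin gene higher. Dendritic cell markers had 4 of 11 (median −0.33, against 0.05 without Control LPS 3, 0.03 without Runx1KO LPS 1 and −1.10 without Runx1KO LPS 3) and progenitor markers 8 of 12 (0.24; Meis1 1.76). The summed level of progenitor markers was 71.9 to 91.0 CPM in Control and 67.9 to 130 CPM in Runx1KO. The 2 groups overlapped, and the Control libraries did not stand above the Runx1KO libraries. The LKS- source named in the design text was not tested, since a comparison of the groups with each other cannot show the source of either.

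The block added 72 rises and 111 falls to the calls, all with the same sign in the 3 numbered pairs. A fit of differences within numbers favours such genes, so the like signs add no support to these calls. Besides Ccl2, the largest rises called with the block alone among genes of at least 2 log2 CPM included Grap, an adaptor of growth factor signalling. It was at 3.81, 20.9 and 23.2 CPM in Control, against 98.6, 253 and 795 CPM in Runx1KO (log2 fold change 4.58, SE 0.96; edgeR adjusted p = 0.0503 without and 0.0134 with the block). The libraries numbered 1 were lowest in both genotypes. Lrrc8b, a subunit of volume-regulated anion channels, Fam49a, a regulator of actin, and Tsc22d1, a leucine zipper protein, had log2 fold changes of 3.24, 2.20 and 2.02. Snai1, a zinc-finger repressor, was called lower with the block, from 15.6, 5.36 and 4.19 CPM to 0.685, 0.359 and 0.562 CPM (−3.96, SE 0.85; adjusted p = 0.0138 with the block). H6pd, an NADPH-producing enzyme of the endoplasmic reticulum, Agpat4, an acyltransferase, Galnt6, a glycosyltransferase, Ankrd9 and Arap2 fell by 3.35, 3.11, 3.06, 2.74 and 2.40. Bmpr1a, a receptor of bone morphogenetic proteins, was at −2.58, and Gm17110, which overlaps it on the opposite strand, was at −4.64, so reads of these genes cannot be told apart without a known strand setting.

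Called genes lay next to each other in the order of genes on the chromosomes in 6 pairs, each in the same direction. They were Dmwd with Dmpk, Krt81 with Krt86, Krt86 with Krt83, Ldha with Ldhc, Stfa2 with Stfa3, and Stfa2l1 with its near copy Gm5483. Dmpk, the kinase of myotonic dystrophy, rose from 3.36, 3.39 and 2.54 CPM to 21.7, 14.6 and 27.3 CPM (2.77, SE 0.36), and Dmwd by 1.87 (SE 0.27). In both genes the groups were well apart.

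The genotype difference after LPS was set beside that with vehicle, which rests on 6 other libraries of the same numbers. The 2 comparisons are not independent, since they share 1 model and its estimate of the spread. Deviations of LPS and vehicle libraries of the same number also correlated, with r = 0.667, 0.659 and 0.394 in Control. In Runx1KO these values were 0.314, 0.537 and 0.006. Like results in both treatments are therefore a description and not a replication. With vehicle edgeR called 45 genes higher (0.348%) and 78 lower (0.604%). Of the 45 genes called higher after LPS, 29 were also called with vehicle (64.4% of either list), and of the 74 called lower, 58 were (78.4% of the LPS list and 74.4% of the vehicle list). All 119 genes had the same sign in both treatments, and the share over all genes tested is not given beside it. A test of the difference between the genotype effects, LPS against vehicle, called 0 of 12917 genes by edgeR (smallest adjusted p = 0.9999, with 77 genes at an unadjusted p under 0.05), and 0 by DESeq2 and limma-voom, with 88 and 57 at an unadjusted p under 0.05. With the block, edgeR had 185 genes under that value. Each of these numbers is below a share of 0.05 of the genes tested, which no difference at all would give. The 0 calls therefore do not show that the genotype effects are equal. Of the genes called after LPS, 6 had an unadjusted p under 0.05 in edgeR's plain test of the difference: Igf2bp3, Stfa2l1, Gm5483, Gm43302, Gm16575 and Sytl3. Stfa2l1 had a log2 fold change of 1.62 after LPS and 0.72 with vehicle. Il27 stood at 2.64 and 1.68, Ccl4 at 2.99 and 0.33, Cxcl2 at 1.28 and −0.26, and Tnf at 1.26 and 0.49, and for none of these did the test of the difference pass (unadjusted p = 0.20, 0.14, 0.41 and 0.66).

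**Figure D5:**
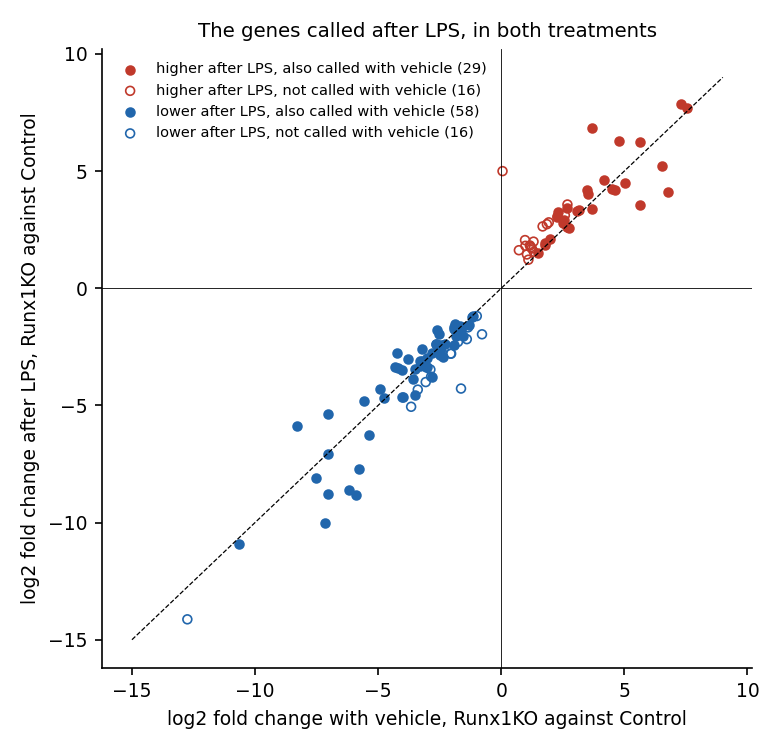
Log2 fold change of Runx1KO against Control with vehicle (horizontal axis) and after LPS (vertical axis) for the 119 genes called after LPS, red for the 45 higher and blue for the 74 lower. Filled points are genes also called with vehicle (29 and 58) and open points those not called there (16 and 16); all lie in the lower left or upper right quadrant, around the dashed line of equal values.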

How the data were processed

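Bulk RNA-seq was available as 1 deposited table of read counts per gene for 12 libraries. The counts are whole numbers that are not normalized, as the unequal totals of the deposited columns show. STAR 2.6.0a, featureCounts and the genome build mm9 are named by the authors, per the submitters' processing notes; annotation release, strand setting and read filters: not given in the sources used here. RNA came from a column kit with DNase and the libraries from an ultra-low input kit, per the labels' protocols. Each column was matched to a sample by its title, and 0 columns were left out.

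Genes were kept with edgeR 4.0.16 filterByExpr (12917 of 37310), scaled by TMM and tested with the quasi-likelihood test in 1 model of 4 groups of 3 libraries, so that the 6 vehicle libraries share in the estimate of the spread (R 4.3.3). P-values were adjusted over all 12917 genes by the method of Benjamini and Hochberg, with a threshold of 0.05. Standard errors are the log2 fold change divided by the square root of F. Log2 CPM used a prior count of 2. Where a group had 0 counts, the fold was computed against 3 counts over that group; counting intervals (95%, exact) cover counting error only, since the reads carry no molecular identifiers. For 1 gene, an exact permutation test of 3 against 3 libraries has a smallest two-sided p of 0.1. Totals of 19023610 counts or more per library make genes of a few CPM countable, while values under 0.1 CPM rest on 1 or 2 counts.

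The library number was used to pair the groups. The labels give it without a meaning, and the sex of the mice goes with it. The same-number correlations between the groups compared, Control LPS and Runx1KO LPS, were 0.429 to 0.565. Between other groups they were above 0.1 except in number 3, where Runx1KO LPS had 0.006 with its vehicle library and −0.053 with Control vehicle. The rule set for taking the number as a batch, every same-number correlation above 0.1, was thus not met. The block fit uses all 12 libraries and is given beside the plain fit where it changes a call. Calls made with the block alone rest on this incomplete pairing. Alternatives were the block, the 6 LPS libraries alone, library size as scaling, DESeq2 1.42.0, limma-voom 3.58.1, no filter and leaving out libraries; the block without each number was chosen after seeing the data.

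The genes named are the 12 largest rises and falls among called genes that reach 2 or more as mean log2 CPM in the higher group and no overlap, without predicted genes, pseudogenes and receptor segments; up to 4 called members per list and direction, or else the member of smallest p; Runx1 and 10 genes of the LPS response or the sort; and the 8 largest rises and falls called with the block alone. The comparison, the 29 gene lists and these rules were chosen with earlier results of these data known. Names, neighbours and promoters came from RefSeq and GENCODE tables on GRCm38, not the build of the alignment; 8758 of the genes tested had a promoter entry, of which the first was used. The fits were run on simulated counts with known changes, to check the sign of the changes called. These counts held no effect of the library number, so they cannot show how the fits handle it.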

Additional observations from a re-analysis of the deposited data

How the results depend on the processing

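Counts of genes called higher and lower after LPS (45 and 74) were 117 and 185 with the replicate block, 13 and 14 with only the 6 LPS libraries, 89 and 133 with these and the block, and 175 and 226 with DESeq2. Leaving out 1 LPS library gave 15 to 56 higher and 27 to 79 lower. Leaving out a number in all groups gave 1 and 2 without number 1, 0 and 4 without number 2 and 11 and 14 without number 3; with the block these were 13 and 26, 0 and 0, and 79 and 116. Fewer libraries leave fewer degrees of freedom; the cause was not tested otherwise. Library size alone, limma-voom and no filter stayed within 1.5 times in each direction. All 35 called genes named kept their call with the block, with DESeq2 and without the filter, 33 with library size, 25 with limma-voom and 16 with only the 6 LPS libraries. In the design with 0 genes called for the difference between treatments, every alternative also called 0.

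The sign of uncalled genes turned as follows. Il6 was at −0.0929 with the block, −0.0308 with the 6 LPS libraries, −0.518 with these and the block, −0.393 with library size, −0.862 with limma-voom, −0.0537 without the filter, and between −2.20 and 0.862 when replicates were left out (−0.0780 without Control LPS 1, −0.470 without Control LPS 2, −0.0557 without number 2, −1.32 without number 3). Leaving out replicates, Cxcl2 ranged from −0.0908 to 1.88, Il1b from −0.254 to 0.823 and Tnf from −0.0206 to 1.79; the negative values were without Runx1KO LPS 3 (Cxcl2 −0.0463, Il1b −0.254, Tnf −0.0206) or without number 3 (Cxcl2 −0.0908, Il1b −0.0452). The cause was not tested.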
